A study of Mus musculus with 12 samples.

Results

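Ngfr, Gfap, Sox9, Sox2, Nes and Aqp1 are genes of the neural crest and its glial derivatives that are read as signs of dedifferentiation in melanoma. These 6 genes, of 55487 in the table, were followed in B16F10 cells, an established mouse melanoma line, after 24 h in conditioned medium from BMDM, macrophages grown from bone marrow. The 12 libraries formed 4 groups of 3, and all cells were labelled wild type. In the TAM group, labelled B16F10-BMDM, the macrophages had themselves received 75% B16F10 conditioned medium for 24 h, a model of tumour-associated macrophages. In the M1 group they had received 20 ng/ml of INF-γ (spelled so by the submitters, taken to mean interferon gamma), in the M2 group 20 ng/ml of IL-4, and in the M0 group control medium (DMEM). No wash of the macrophages before collection is described, so their products and the carried-over agents cannot be told apart. Whether the 3 libraries of each group are separate cultures is not stated either, and the errors may therefore reflect technical spread alone. The 6 genes were listed by name and selected on their CPM in these libraries, which was in view for all 4 groups. Their levels and changes are therefore given as a description with errors and without p-values.

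The neural crest is an embryonic cell population that gives rise to melanocytes, Schwann cells, peripheral neurons and parts of the facial skeleton. Melanoma cells can lose pigment gene expression and take up genes of this earlier state, which is known for tolerance of targeted drugs and immune attack. Ngfr encodes p75, the neurotrophin receptor that marks neural crest stem cells. Nes (nestin) and Gfap encode intermediate filament proteins of neural progenitors and of astrocytes and non-myelinating Schwann cells. Sox9 and Sox2 encode transcription factors of progenitor cells, and Aqp1 encodes a water channel that marks neural crest-like residual cells in human melanoma.

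The genes did not behave as 1 group. Ngfr was far higher with TAM and M1 medium than with M0 medium, and Nes was higher with the same media by much less. Gfap was higher with M1 medium and lower, by a smaller change, with TAM medium. Sox9 was lower with M1 medium and, by a smaller change, with TAM medium, where the ranges of TAM and M0 overlapped. Aqp1 stayed close to the detection limit in every group, and Sox2 had no count in any library.

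The promoters of the 3 genes whose levels were higher with at least 1 of these media are shown. Ngfr and Nes were higher with both M1 and TAM medium, and only Gfap parted in direction between them. Each line gives the 250 bases before the RefSeq start, 5′ to 3′ on the gene's strand, in GRCm38.p6, the assembly also called mm10. Capitals mark matches, on either strand, to the E-box CANNTG and the GC box GGGCGG.
Ngfr, chr11:95587699-95587948, minus strand: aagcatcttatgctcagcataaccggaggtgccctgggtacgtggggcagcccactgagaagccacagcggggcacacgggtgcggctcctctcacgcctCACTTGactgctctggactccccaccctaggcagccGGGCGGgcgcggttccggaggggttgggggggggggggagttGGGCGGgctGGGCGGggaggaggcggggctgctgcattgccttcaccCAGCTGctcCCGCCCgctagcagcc
Gfap, chr11:102897201-102897450, minus strand: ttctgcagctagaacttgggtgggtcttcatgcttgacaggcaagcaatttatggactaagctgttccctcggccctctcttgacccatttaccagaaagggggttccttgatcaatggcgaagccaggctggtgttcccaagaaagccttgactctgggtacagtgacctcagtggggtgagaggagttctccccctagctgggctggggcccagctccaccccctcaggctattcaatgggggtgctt
Nes, chr3:87970843-87971092, plus strand: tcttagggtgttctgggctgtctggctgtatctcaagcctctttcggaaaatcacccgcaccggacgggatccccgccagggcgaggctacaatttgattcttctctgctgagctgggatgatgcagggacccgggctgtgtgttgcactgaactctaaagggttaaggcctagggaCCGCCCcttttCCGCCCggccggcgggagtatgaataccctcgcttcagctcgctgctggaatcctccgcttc
Ngfr held 2 E-boxes and 4 GC boxes, Nes 0 and 2, and Gfap 0 of either. Of 32851 promoter windows of this length, 66.2% held at least 1 E-box and 32.7% at least 1 GC box. Ngfr had 70.4% G and C and 16 CpG pairs, Nes 58.8% and 15, and Gfap 55.6% and 2, beside medians of 52.4% and 6 over all windows. Gfap's window lies within its GENCODE span, which reaches further upstream than the RefSeq start. The letters TTCNNNGAA (a STAT site, in 7.02% of windows), a pair of GAAA repeats 2 bases apart (an interferon-response form, in 2.98%), TGANTCA (AP-1, in 6.75%) and ACAANG (SOX, in 36.3%) were searched on both strands and had no match in these 3 windows. A match or its absence describes these letters in this window only.

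Library totals ran from 15916756 to 20863973 counts, and 14591 genes passed the filter on low counts, among them 5 of the 6 genes. Levels are CPM, counts scaled to library size after TMM, a correction for library composition. M0 replicate 1 stood apart. Its correlation with the other M0 libraries over genes was 0.945 and 0.948, while pairs without it, taken inside a group, reached 0.992 to 0.993. The mean exon length behind its counts was 4545 bp, against 5817 to 6091 bp elsewhere. The changes of the 6 genes and the list counts against M0 are given with and without it, and single list genes with all libraries unless stated. Melanocyte genes identified the cells as labelled, with 19 of them summing to between 21082 and 29498 CPM before TMM scaling.

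Ngfr (chromosome 11, 95568818 to 95587735, minus strand, mm10) had 31.7, 33.4 and 35.0 CPM in TAM, 25.1, 25.5 and 28.0 CPM in M1, 1.75, 2.58 and 2.72 CPM in M2, and 1.25, 1.73 and 2.59 CPM in M0. The ranges of TAM and M1 lay apart from each other and far above those of M2 and M0, which overlapped. The raw counts behind these levels were 607 to 698 in TAM, 439 to 564 in M1, 32 to 53 in M2 and 20 to 54 in M0. The difference from M0 was 17.6-fold in TAM, a log2 change of 4.14 ± 0.22 (SE), and 13.8-fold in M1, a log2 change of 3.79 ± 0.22. Leaving out M0 replicate 1 gave 4.05 ± 0.15 and 3.75 ± 0.16. TAM exceeded M1 by 0.35 ± 0.18 on the log2 scale. In bulk libraries fewer expressing cells and less RNA per cell cannot be told apart.

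**Figure D1:**
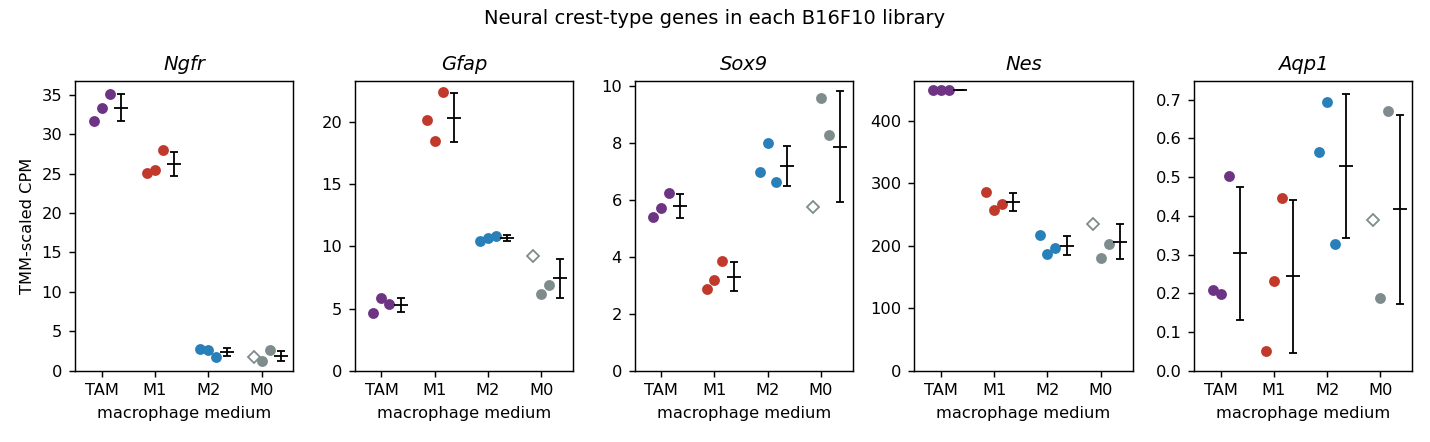
TMM-scaled CPM of the 5 genes with counts in each library, by macrophage medium (TAM, M1, M2, M0 from left to right). Points are single libraries, the open diamond is M0 replicate 1, and the bar beside each group is the mean ± SD of 3 libraries. Ngfr was above 25 CPM in every TAM and M1 library and below 2.8 CPM in every M2 and M0 library.

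Other genes of neurotrophin signalling did not follow Ngfr as a set. Of 20 genes for ligands, receptors and adaptors, 12 were tested. TAM versus M0 had 3 that rose and 5 that fell, with a median log2 change of 0.03, where 23.3% of all tested genes were called higher and 27.2% lower. In M1 versus M0 2 rose and 2 fell, with a median of −0.05, where 12.2% were called higher and 13.5% lower. The median over all tested genes was −0.02 in both comparisons. Leaving out M0 replicate 1 gave 4 and 6 in TAM, beside 33.0% called higher and 33.7% lower among all genes, and 2 and 4 in M1, beside 24.3% and 22.9%.

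Bdnf, a neurotrophin ligand of p75, rose in both. It averaged 11.4 ± 1.10 CPM in TAM and 1.12 ± 0.445 CPM in M0 (SD, n = 3 each), a log2 change of 3.33 ± 0.29 (adjusted p = 5.47e-06). In M1 it averaged 3.90 ± 0.866 CPM, a change of 1.79 ± 0.30 (adjusted p = 0.00145). Ripk2, a kinase that binds the p75 death domain, averaged 96.6 ± 2.91 CPM in M1 and 16.8 ± 2.44 CPM in M0, a change of 2.53 ± 0.12 (adjusted p = 4.06e-08). Sort1, the p75 co-receptor sortilin, fell in both, with log2 changes of −0.59 ± 0.15 in TAM (adjusted p = 0.00793) and −0.72 ± 0.15 in M1 (adjusted p = 0.0058). Both calls were lost when only the groups compared were fitted (adjusted p = 0.0739 in TAM and 0.113 in M1). Maged1, a p75 adaptor, fell in TAM with a change of −0.51 ± 0.08 (adjusted p = 0.000265). Ntrk2, a neurotrophin receptor kinase gene, and Ntf3, a neurotrophin gene, had no count in any library.

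The genes whose log2 CPM tracked Ngfr most closely over the 12 libraries, of 9784 named protein-coding genes compared, were Axl (r = 0.994), Prkg2 (r = 0.991) and Jun (r = 0.985). The libraries share group structure and scaling, so these values describe likeness only. Axl, a receptor kinase of dedifferentiated melanoma cells, averaged 106 ± 2.04 CPM in TAM, 85.3 ± 4.65 CPM in M1, 25.5 ± 2.47 CPM in M2 and 21.6 ± 3.20 CPM in M0. Jun, an AP-1 subunit, averaged 150.8 ± 4.05, 126.8 ± 8.32, 39.0 ± 1.83 and 38.7 ± 1.63 CPM in the same order of groups. Prkg2, a cyclic GMP-dependent kinase, averaged 27.5 CPM in TAM and M1 and 1.30 ± 0.369 CPM in M0.

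Nes (chromosome 3, 87971078 to 87980451, plus strand) was the most abundant of the 6 genes per length. It had 449.3, 449.4 and 449.7 CPM in TAM, 257.8, 267.3 and 285.9 CPM in M1, 186.4, 196.8 and 217.2 CPM in M2, and 180.2, 202.8 and 235.4 CPM in M0. TAM lay above M1 and M1 above M2 and M0 with no overlap, while M2 and M0 overlapped. The log2 change was 1.12 ± 0.11 in TAM versus M0 (2.18-fold) and 0.39 ± 0.11 in M1 versus M0 (1.31-fold). With M0 replicate 1, the highest M0 library, left out, these were 1.22 ± 0.06 and 0.53 ± 0.05. Per kilobase of merged exon, Nes stood at 70.1 ± 0.0278 CPM per kb in TAM and 32.1 ± 4.33 in M0, against 9.69 ± 0.483 and 0.539 ± 0.196 for Ngfr (SD, n = 3).

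Gfap (chromosome 11, 102887336 to 102900912, minus strand) had 4.65, 5.37 and 5.83 CPM in TAM, 18.5, 20.2 and 22.4 CPM in M1, 10.4, 10.7 and 10.9 CPM in M2, and 6.20, 6.90 and 9.20 CPM in M0. No pair of groups overlapped, and the order was M1, M2, M0, TAM from high to low. The narrowest gap was between the highest TAM library at 5.83 CPM and the lowest M0 library at 6.20 CPM. The log2 change was 1.45 ± 0.15 in M1 versus M0 (2.74-fold), 0.52 ± 0.15 in M2 versus M0 and −0.49 ± 0.16 in TAM versus M0. With M0 replicate 1 left out, these were 1.67 ± 0.13, 0.70 ± 0.14 and −0.32 ± 0.15. Set directly against M1, TAM had a log2 change of −1.94 ± 0.16. Stat3, whose protein drives Gfap in developing astrocytes, averaged 140.6 ± 6.22 CPM in TAM, 458 ± 18.1 CPM in M1, 165.9 ± 7.85 CPM in M2 and 94.7 ± 18.1 CPM in M0. Whether Stat3 has a part in the levels of Gfap was not tested.

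**Figure D2:**
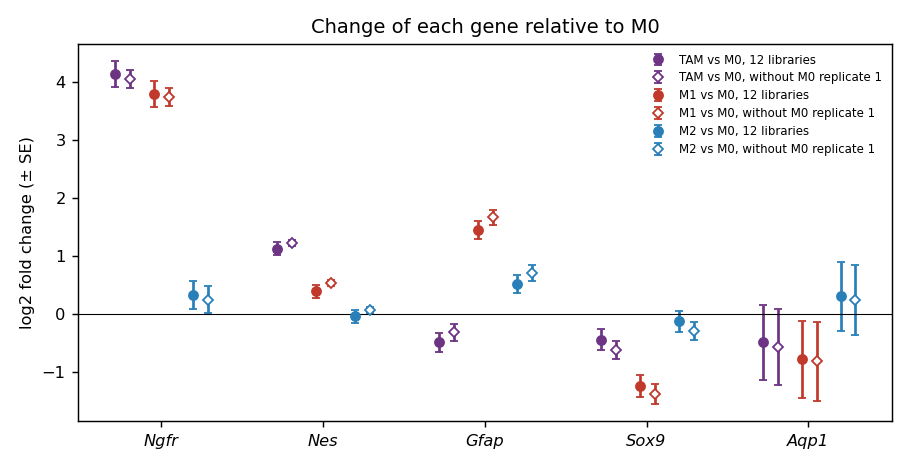
Log2 fold change relative to M0 (± SE) of the 5 tested genes in TAM, M1 and M2. Filled circles use all 12 libraries and open diamonds leave out M0 replicate 1. Ngfr lay near 4 in both TAM and M1, Nes was above 0 in both, and Gfap was above 0 in M1 and below 0 in TAM.

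Other intermediate filament genes were counted in the same way. Of 16 genes, Nes and Gfap left out, 8 were tested. In TAM versus M0 1 rose and 4 fell, with a median log2 change of −0.84, and without M0 replicate 1 the counts were the same and the median −0.45. In M1 versus M0 2 rose and 2 fell, with a median of −0.06, and without M0 replicate 1 5 rose and 2 fell with a median of 0.32. Relative to M0, 23.3% of all tested genes were called higher and 27.2% lower in TAM, and 12.2% and 13.5% in M1. Without M0 replicate 1 these shares were 33.0% and 33.7% in TAM and 24.3% and 22.9% in M1. TAM versus M1 had 1 that rose and 5 that fell, where 19.8% of all tested genes were called higher and 23.3% lower. Those counts were 1 and 7 with M0 replicate 1 left out of the fit (32.4% and 37.7% of all genes).

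Prph, the peripherin gene of peripheral neurons, averaged 222.5 ± 5.03 CPM in M1 and 3.02 ± 0.941 CPM in M0, a log2 change of 6.20 ± 0.23 (adjusted p = 7.39e-09). In TAM it averaged 4.89 CPM, a change of 0.69 ± 0.21 (adjusted p = 0.0183). The call in TAM did not hold without M0 replicate 2 (adjusted p = 0.0581), M0 replicate 3 (0.0578) or TAM replicate 3 (0.0525), or in a fit of only the groups compared (0.0774). Vim, encoding vimentin, the general mesenchymal filament protein, averaged 592 ± 29.6 CPM in TAM, 2145 ± 43.2 CPM in M1 and 1534 ± 141 CPM in M0. It fell in TAM with a log2 change of −1.37 ± 0.09 (adjusted p = 5.96e-07) and rose in M1 by 0.48 ± 0.09 (adjusted p = 0.00245). Vim and Gfap thus lay above M0 in M1 and below it in TAM, whereas Nes lay above M0 in both. The nuclear lamin genes Lmnb1, Lmnb2 and Lmna fell in TAM, with changes of −1.93 ± 0.18, −1.12 ± 0.08 and −1.11 ± 0.18. Lmnb2 and Lmnb1 also fell in M1, by smaller changes of −0.40 ± 0.08 and −0.61 ± 0.17, and neither call in M1 held under every alternative. Lmnb1 lost it without any 1 of the TAM or M1 libraries or M0 replicate 2 or 3 (adjusted p up to 0.0933) and with only the groups compared (0.208). Lmnb2 lost it with no low-count filter (adjusted p = 0.0721) and with only the groups compared (0.119).

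**Figure D3:**
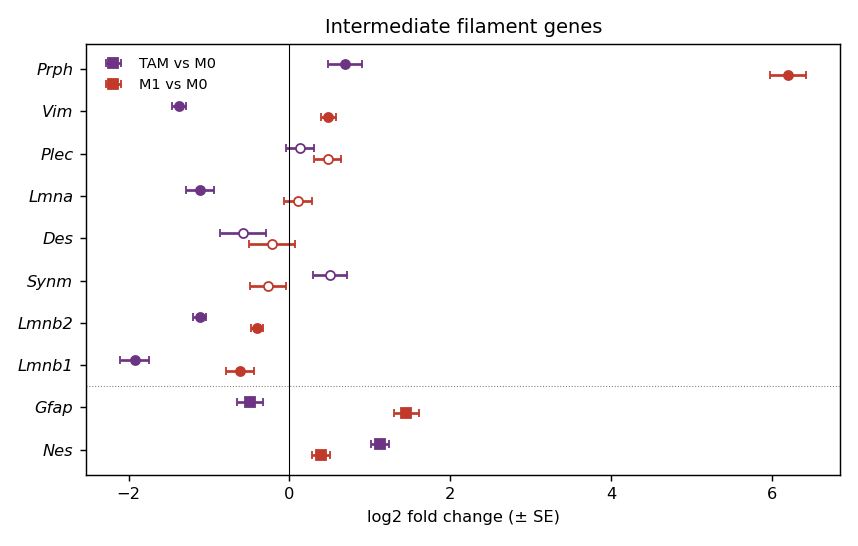
Log2 fold change (± SE) of intermediate filament genes in TAM versus M0 and M1 versus M0. Circles are the 8 tested genes of the list, filled where they passed an adjusted p of 0.05, and squares below the dotted line are Gfap and Nes, shown without a test. Prph reached 6.20 in M1 against 0.69 in TAM.

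Over the 12 libraries, Gfap was most like Olfml3 (r = 0.968), Stom (r = 0.966) and Gnb4 (r = 0.964). Gnb4, a G protein beta subunit, averaged 14.4 ± 0.177 CPM in TAM, 147.4 ± 2.40 CPM in M1, 45.7 ± 2.15 CPM in M2 and 33.6 ± 3.04 CPM in M0. Nes was most like Pycr1 (r = 0.997), an enzyme of proline synthesis, Nupr1 (r = 0.996), a stress-induced nuclear protein gene, and Lars (r = 0.993), the leucyl-tRNA synthetase. Nupr1 averaged 418 ± 18.4 CPM in TAM, 41.3 ± 7.29 CPM in M1, 9.90 ± 2.59 CPM in M2 and 15.2 ± 12.8 CPM in M0. These correlations carry the group differences and no test.

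Glial genes beyond Gfap moved in both directions. Of 23 genes of glia and Schwann cells, 14 were tested. Of these, 4 rose and 7 fell in TAM versus M0 (median log2 change −0.93), and in M1 versus M0 7 rose and 5 fell (median 0.54). With M0 replicate 1 left out the counts were 4 and 8 in TAM and 7 and 5 in M1. Relative to M0, 23.3% of all tested genes were called higher and 27.2% lower in TAM, and 12.2% and 13.5% in M1. Without M0 replicate 1 these shares were 33.0% and 33.7% in TAM and 24.3% and 22.9% in M1. Set against M1, 3 rose and 8 fell in TAM (19.8% and 23.3% of all genes). With that library left out of the fit these counts were 3 and 11 (32.4% and 37.7%). Aldh1l1, an astrocyte marker enzyme of folate metabolism, averaged 2.27 ± 0.0850 CPM in TAM, 71.0 ± 1.30 CPM in M1 and 26.7 ± 6.6 CPM in M0. It fell in TAM with a log2 change of −3.56 ± 0.18 (adjusted p = 1.03e-07) and rose in M1 by 1.41 ± 0.15 (adjusted p = 5.33e-05). Mbp, a myelin protein gene, fell in TAM with a change of −1.98 ± 0.15 (adjusted p = 1.9e-06), to 7.42 CPM against 29.2 CPM in M0. Glul, glutamine synthetase, fell in both, with changes of −1.46 ± 0.09 in TAM and −0.68 ± 0.08 in M1. Prx, the Schwann cell gene periaxin, rose in both, by 2.56 ± 0.17 in TAM and 1.28 ± 0.17 in M1. Mal, a myelin membrane proteolipid gene, rose in both, by 1.43 ± 0.34 in TAM (adjusted p = 0.00496) and 2.77 ± 0.33 in M1 (adjusted p = 0.000121).

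Of 14 neuron and astrocyte markers 4 were tested. Among them 1 rose and 3 fell in TAM versus M0 (median −1.77), and in M1 versus M0 3 rose and 0 fell (median 1.10), with the same counts when M0 replicate 1 was left out. Over all tested genes 23.3% were called higher and 27.2% lower in TAM, and 12.2% and 13.5% in M1. Without M0 replicate 1 these shares were 33.0% and 33.7% in TAM and 24.3% and 22.9% in M1. Tubb3, the neuronal beta-tubulin gene, averaged 35.7 ± 2.23 CPM in TAM, 856.5 ± 22.4 CPM in M1 and 262 ± 83.2 CPM in M0. It fell in TAM with a log2 change of −2.88 ± 0.19 (adjusted p = 6.96e-07) and rose in M1 by 1.71 ± 0.18 (adjusted p = 4.93e-05). Aldh1l1 stands in this list too. Map2, a neuronal microtubule protein gene, had changes of −0.66 ± 0.23 in TAM (adjusted p = 0.0329) and 0.79 ± 0.22 in M1 (adjusted p = 0.0251). Its call in TAM was lost without any 1 of the TAM libraries or M0 replicate 2 or 3 (adjusted p up to 0.112), and its call in M1 without any 1 of the M1 libraries (up to 0.0768). Fitting only the groups compared ended both calls (adjusted p = 0.143 in TAM and 0.159 in M1), and limma-voom that in TAM (0.0704). The defining neuron and oligodendrocyte genes Snap25, Gad1 and Olig2 had no count in any library.

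Sox9 (chromosome 11, 112782224 to 112787760, plus strand) encodes a factor of neural crest specification and cartilage formation. It had 5.38, 5.73 and 6.23 CPM in TAM, 2.87, 3.20 and 3.87 CPM in M1, 6.62, 6.98 and 7.98 CPM in M2, and 5.74, 8.29 and 9.58 CPM in M0. M1 lay below every other group. The lowest M0 value was that of replicate 1, and it alone made M0 overlap with TAM and with M2. The log2 change was −1.24 ± 0.20 in M1 versus M0 and −0.44 ± 0.19 in TAM versus M0, or −1.38 ± 0.17 and −0.63 ± 0.16 without that library. TAM exceeded M1 by 0.80 ± 0.20 (1.74-fold). The counts were small, 55 to 78 in M1 and 103 to 173 in M0. Over the 12 libraries Sox9 was most like Sf3b3 (r = 0.955), Sf3a1 (r = 0.949) and Ctns (r = 0.948). Sf3b3 and Sf3a1 encode splicing factor subunits whose group means spanned 267 to 330 CPM and 172 to 217 CPM.

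Genes that SOX9 activates in cartilage showed values on both sides of 0. Of 15 genes 11 were tested. In M1 versus M0 1 rose and 3 fell (median −0.65), and in TAM versus M0 4 rose and 2 fell (median 0.32). When M0 replicate 1 was left out, 2 rose and 5 fell in M1 (median −0.24) and 5 rose and 2 fell in TAM (median 0.36). Over all tested genes 12.2% were called higher and 13.5% lower in M1, and 23.3% and 27.2% in TAM. Without M0 replicate 1 these shares were 24.3% and 22.9% in M1 and 33.0% and 33.7% in TAM. Col2a1, the cartilage collagen gene, fell in M1 with a log2 change of −1.26 ± 0.31 (adjusted p = 0.0119), to 1.36 ± 0.314 CPM against 3.28 ± 1.34 CPM in M0, a call lost without M1 replicate 3 (adjusted p = 0.0559) and with only the groups compared (0.0951). Col11a2, another cartilage collagen gene, fell in M1 with a change of −1.05 ± 0.17 (adjusted p = 0.000944) and rose in TAM by 1.18 ± 0.16 (adjusted p = 0.000106). Ccn2, a matricellular growth factor gene, rose in TAM by 2.35 ± 0.24 (adjusted p = 1.6e-05), to 9.73 CPM against 1.90 CPM in M0. Col9a3 was the 1 that rose in M1, by 1.59 ± 0.23 (adjusted p = 0.000568), to 5.43 CPM against 1.81 CPM in M0. Col9a1 fell in TAM with a change of −1.92 ± 0.34 (adjusted p = 0.00088), to 0.831 CPM against 3.14 CPM in M0. Acan, the aggrecan gene, had 1 count in TAM and 0 in the other groups.

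Sox2 (chromosome 3, 34650405 to 34652461, plus strand), a factor of pluripotent and neural stem cells, had 0 counts in all 12 libraries. A count of 0 allows up to 3 counts, which is 0.0131 CPM over all 228585090 counts and 0.144 to 0.188 CPM in a single library. This limit covers counting error only. The overlapping transcript Sox2ot had 5 counts in all. Of 18 further SOX genes 6 were tested, and 7 had no count. Sox10, the melanocyte and Schwann cell factor, was the most abundant in CPM at 323 ± 5.88 in TAM, 547.6 ± 24.2 in M1 and 612 ± 119 in M0, and fell in TAM with a log2 change of −0.92 ± 0.12 (adjusted p = 0.000104). Sox4 and Sox6 rose in TAM, by 1.77 ± 0.29 (adjusted p = 0.000487) and 1.03 ± 0.28 (adjusted p = 0.00964). The change of Sox6 was 0.69 when M0 replicate 1 was left out, and its call was lost with only the groups compared (adjusted p = 0.0762). Sox10, Sox4 and Sox6 were the only SOX genes called in TAM versus M0 with all libraries. In M1 versus M0 edgeR called 0 of the 6, with 3 at an unadjusted p under 0.05, while DESeq2 called 1 and limma-voom 0. Leaving out M0 replicate 1, 2 rose and 2 fell in TAM, and 1 rose and 3 fell in M1. Over all tested genes 23.3% were called higher and 27.2% lower in TAM, and 12.2% and 13.5% in M1. Without M0 replicate 1 these shares were 33.0% and 33.7% in TAM and 24.3% and 22.9% in M1.

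Aqp1 (chromosome 6, 55336432 to 55348555, plus strand) had 4, 4 and 10 counts in TAM, 1, 4 and 9 in M1, 6, 11 and 14 in M2, and 3, 7 and 14 in M0. All groups overlapped. Summed over a group, the ratio to M0 was 0.713 in TAM (95% exact conditional binomial interval 0.365 to 1.37), 0.583 in M1 (0.279 to 1.17) and 1.27 in M2 (0.724 to 2.27). These intervals cover counting error only, and a difference within them was not detectable at this depth. Of 11 other aquaporin genes only Aqp11, a channel of intracellular membranes, was tested. It averaged 0.505 ± 0.166 CPM in TAM, 3.57 ± 1.09 CPM in M1 and 3.57 ± 0.508 CPM in M0, and fell in TAM with a log2 change of −2.80 ± 0.30 (adjusted p = 2.15e-05), a call that held without M0 replicate 1 at a change of −2.69.

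Because all genes are read in the same library, their ratios do not depend on the scaling between libraries. Per kilobase of exon, the ratio of Ngfr to Gfap was 7.01 to 8.35 in TAM, 1.52 to 1.69 in M1, 0.197 to 0.320 in M2 and 0.230 to 0.459 in M0. TAM and M1 did not overlap with each other or with M2 and M0, where Gfap exceeded Ngfr in every library. The ratio of Gfap to Sox9 was 0.846 to 0.997 in TAM, 5.67 to 6.90 in M1, 1.31 to 1.61 in M2 and 0.634 to 1.57 in M0. M1 was the only group in which every library had at least 5 times as much Gfap as Sox9 per length. Nes made up 84.2% to 85.7% of the summed per-length level of the 6 genes in TAM, 74.1% to 77.7% in M1 and 86.9% to 89.7% in M0. Ngfr made up 11.3% to 12.2% in TAM, 12.7% to 14.4% in M1 and 1.12% to 2.07% in M0.

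**Figure D4:**
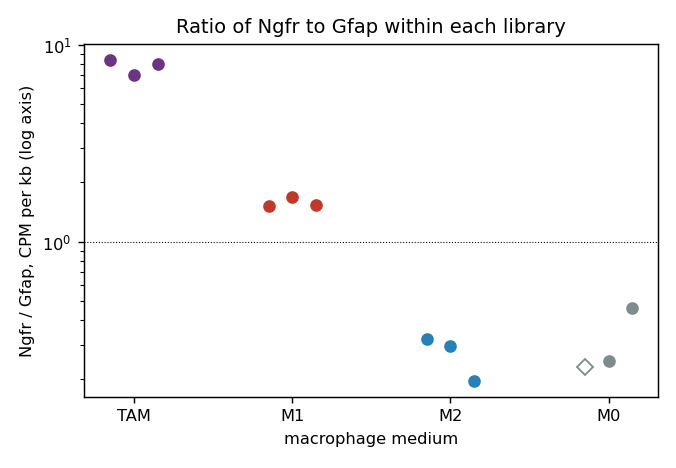
Ratio of Ngfr to Gfap in each library, both as CPM per kb of merged exon, on a log axis, by macrophage medium (TAM, M1, M2, M0 from left to right). The open diamond is M0 replicate 1 and the dotted line marks a ratio of 1. TAM lay between 7.01 and 8.35, M1 between 1.52 and 1.69, and every M2 and M0 library below 0.46.

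The number of the 5 tested genes whose groups did not overlap can be set beside the same count over all tested genes. In TAM versus M0 3 of 5 lay apart (58.9% of all tested genes), 2 higher (29.9%) and 1 lower (29.0%). In M1 versus M0 4 of 5 lay apart (42.3%), 3 higher (20.4%) and 1 lower (21.9%). Between TAM and M1 4 of 5 lay apart (73.2%), with Ngfr, Nes and Sox9 higher in TAM (36.4%) and Gfap lower (36.8%). M2 versus M0 had 1 of 5 apart (12.3%), which was Gfap, higher (5.22%, with 7.08% lower). Leaving out M0 replicate 1 gave 4 in TAM versus M0 (77.5%), 4 in M1 versus M0 (64.5%) and 2 in M2 versus M0 (24.1%). The genes were proposed with these comparisons in view, and TAM versus M0 and M1 versus M0 share the M0 libraries.

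Across the 12 libraries the genes were not uniformly alike. The correlation of log2 CPM was 0.847 between Ngfr and Nes, 0.115 between Ngfr and Gfap, −0.358 between Gfap and Nes, −0.700 between Ngfr and Sox9 and −0.684 between Gfap and Sox9. These are descriptions over libraries that share groups.

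Both media went with lower levels of most pigment genes, and the neural crest factors beside them differed between TAM and M1. Of 18 tested melanocyte genes 13 fell and 1 rose in TAM versus M0 (median −1.06), and 12 fell and 0 rose in M1 versus M0 (median −0.95). The other 4 in TAM and 6 in M1 were not called. The summed level of the list had a median of 23721 CPM in TAM, 21271 in M1 and 29354 in M0, before TMM scaling. When M0 replicate 1 was left out, 14 fell and 3 rose in TAM, and 15 fell and 2 rose in M1. Over all tested genes 27.2% were called lower and 23.3% higher in TAM, and 13.5% and 12.2% in M1. Without M0 replicate 1 these shares were 33.7% and 33.0% in TAM and 22.9% and 24.3% in M1. Pax3 was the one that rose in TAM with all libraries. Pax3 and Sox10 stand both in this list and in that of the neural crest factors. Mitf, the master regulator of the lineage, averaged 110.3 ± 2.41 CPM in TAM, 351.7 ± 55.9 CPM in M1 and 457 ± 203 CPM in M0. It fell in TAM with a log2 change of −2.05 ± 0.29 (adjusted p = 0.000177), and its change in M1 was −0.38 ± 0.28 (adjusted p = 0.342), or −0.67 with an adjusted p of 0.00163 when M0 replicate 1 was left out. The change in TAM versus M1 was −1.67 ± 0.29 (adjusted p = 0.000753). Pmel, the melanosome matrix gene, changed by −1.85 ± 0.17 in TAM and −1.24 ± 0.17 in M1, and Tyr, the tyrosinase gene, by −0.92 ± 0.16 and −1.15 ± 0.16. Slc45a2, a melanosome transporter gene, fell in both, with changes of −1.48 ± 0.08 in TAM (adjusted p = 1.29e-07) and −1.41 ± 0.08 in M1 (adjusted p = 1.65e-07).

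Of 20 neural crest transcription factor genes 10 were tested and 7 had no count. Among the 10 tested, 5 rose and 2 fell in TAM versus M0 (median 0.43), and in M1 versus M0 3 rose and 1 fell (median 0.002). Without M0 replicate 1 these counts were 6 and 2 in TAM and 4 and 4 in M1. Over all tested genes 23.3% were called higher and 27.2% lower in TAM, and 12.2% and 13.5% in M1. Without M0 replicate 1 these shares were 33.0% and 33.7% in TAM and 24.3% and 22.9% in M1. Id3, an inhibitor of differentiation factors, averaged 113 ± 11.3 CPM in TAM, 30.0 ± 2.54 CPM in M1 and 19.7 ± 6.25 CPM in M0, with changes of 2.52 ± 0.19 (adjusted p = 1.59e-06) and 0.61 ± 0.18 (adjusted p = 0.0325). The call of Id3 in M1 was lost with upper-quartile scaling (adjusted p = 0.0712), with only the groups compared (0.153) and without any 1 of the M1 libraries or M0 replicate 2 or 3 (up to 0.105), while its change was 0.93 without M0 replicate 1. Pax3, an upstream factor of the crest and melanocytes, rose in TAM by 1.19 ± 0.17 (adjusted p = 0.000163), to 375 CPM against 164.8 CPM in M0. Snai2, a factor of crest migration, rose in both, by 1.02 ± 0.24 in TAM (adjusted p = 0.00448) and 1.07 ± 0.24 in M1 (adjusted p = 0.00765). The call in M1 was lost with only the groups compared (adjusted p = 0.0554). Zic1, a factor of the neural plate border, rose in M1 by 1.00 ± 0.25 (adjusted p = 0.0133), a call lost without M1 replicate 3 (adjusted p = 0.0598) and with only the groups compared (0.0736). Id2 fell in M1 with a change of −0.55 ± 0.10 (adjusted p = 0.00326) and rose in TAM by 0.42 ± 0.10 (adjusted p = 0.00597). Fitting only the groups compared ended both calls (adjusted p = 0.0962 in M1 and 0.0551 in TAM). The 2 that fell in TAM were Sox10, with a change of −0.92 ± 0.12 (adjusted p = 0.000104), and Tfap2a, with −0.47 ± 0.08 (adjusted p = 0.000787).

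Of 21 further genes linked to neural crest-like or dedifferentiated melanoma, 14 were tested. Of the 14, 4 rose and 3 fell in TAM versus M0 (median −0.05), and in M1 versus M0 6 rose and 1 fell (median 0.42). Leaving out M0 replicate 1, 4 rose and 8 fell in TAM (median −0.22) and 10 rose and 2 fell in M1 (median 0.43). Relative to M0, 23.3% of all tested genes were called higher and 27.2% lower in TAM, and 12.2% and 13.5% in M1. Without M0 replicate 1 these shares were 33.0% and 33.7% in TAM and 24.3% and 22.9% in M1. Against M1, 3 rose and 7 fell in TAM (19.8% and 23.3% of all genes). With that library left out of the fit these counts were 4 and 8 (32.4% and 37.7%). Axl rose in both, by 2.30 ± 0.12 in TAM (adjusted p = 1.23e-07) and 1.98 ± 0.12 in M1 (adjusted p = 3.52e-07). Kdm5b, a histone demethylase of slow-cycling melanoma cells, rose in both, by 1.94 ± 0.16 in TAM (adjusted p = 2.76e-06) and 0.77 ± 0.15 in M1 (adjusted p = 0.00391). The call in M1 was lost with only the groups compared (adjusted p = 0.0611). Erbb3, a neuregulin receptor gene, and Cadm1, an adhesion molecule gene, rose in M1 by 1.22 ± 0.20 (adjusted p = 0.00135) and 1.31 ± 0.23 (adjusted p = 0.00215). Ncam1, the neural adhesion molecule gene, rose in TAM by 0.40 ± 0.10 (adjusted p = 0.00542) and fell in M1 with a change of −0.75 ± 0.10 (adjusted p = 0.00025). Anxa1 and Tmem176a were among the 3 that fell in TAM, with changes of −0.92 ± 0.11 (adjusted p = 3.81e-05) and −1.37 ± 0.19 (adjusted p = 0.000163). With all libraries neither was called in M1 versus M0 (adjusted p = 0.161 and 0.703). Gfra2 and Rxrg, which with Aqp1 and Ngfr mark the neural crest-like state in human melanoma, had no count in any library.

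M2 medium was close to M0 medium for most of these genes. EdgeR called 0 of all genes in M2 versus M0 (0.00%, or 0.341% without M0 replicate 1), with 980 at an unadjusted p under 0.05, while DESeq2 called 7 and limma-voom 0. Gfap differed most in proportion to its error among the 6 genes, with 10.7 ± 0.233 CPM in M2 and 7.43 ± 1.57 CPM in M0. The log2 changes of Ngfr, Sox9 and Nes were 0.32 ± 0.24, −0.13 ± 0.19 and −0.04 ± 0.11.

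Markers of macrophages, fibroblasts and endothelium were at low levels. Of 23 macrophage markers 13 had any count and 5 were tested, and their sum was 4.63 to 5.91 CPM in TAM, 8.92 to 9.48 in M1, 9.85 to 10.1 in M2 and 8.44 to 9.31 in M0, before TMM scaling. Of the 5, 0 rose and 4 fell in TAM versus M0, and 0 rose and 1 fell in M1 versus M0. Without M0 replicate 1 these counts were 0 and 3 in TAM and 1 and 0 in M1. Over all tested genes 23.3% were called higher and 27.2% lower in TAM, and 12.2% and 13.5% in M1. Without M0 replicate 1 these shares were 33.0% and 33.7% in TAM and 24.3% and 22.9% in M1. Ptprc, Adgre1 and Itgam, which define leukocytes and macrophages, had no count. Of 13 fibroblast and endothelial markers 9 had any count and 4 were tested, summing to 40.5 to 42.9 CPM in TAM, 17.6 to 22.0 in M1 and 20.5 to 26.6 in M0. Of the 4 tested, 3 rose and 0 fell in TAM versus M0. They were Col1a1, a collagen gene, by 2.23 ± 0.22 (adjusted p = 1.37e-05), Vwf, the von Willebrand factor gene, by 1.87 ± 0.27 (adjusted p = 0.000194), and Pdgfrb, a growth factor receptor gene, by 0.47 ± 0.14 (adjusted p = 0.0168). The call of Pdgfrb was lost without M0 replicate 2 (adjusted p = 0.059) or TAM replicate 2 (0.0545) and with only the groups compared (0.0534). Without M0 replicate 1, 3 of the 4 rose and 1 fell in TAM, and 0 rose and 2 fell in M1. Cdh5, Kdr, Dcn and Thy1, defining genes of endothelium and fibroblasts, had no count. Nes and Aqp1 are also expressed in endothelium, and the part of such cells in their levels was not tested.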

How the data were processed

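RNA-seq of 12 libraries was used, as 1 matrix of raw counts that the authors deposited, with whole numbers for 55487 Ensembl genes. HISAT2 2.0 and mm10 come from the submitters' processing notes. The counter, its annotation and its strand setting were not stated, so reads of antisense genes could not be separated. RNA was taken up in Trizol, per the labels' protocols. Floors and intervals cover counting error only.

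Columns were matched to samples by title. Symbols were found for 55141 identifiers, and coordinates and merged exon lengths come from GENCODE M21 (GRCm38, mm10) for 55227. Promoters are RefSeq's, found for 5 of the 6 genes.

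Counts were fitted in R 4.3.3 with edgeR 4.0.16 (filterByExpr by group with a minimum count of 10, TMM, robust quasi-likelihood, all 12 libraries, 1 mean per group) over 14591 genes, with Benjamini-Hochberg adjustment and calls at an adjusted p under 0.05. The SE is the absolute log2 change divided by the square root of F. Correlations used log2 CPM with a prior count of 2. Alternatives were DESeq2 1.42.0, limma-voom (limma 3.58.1), other scalings, no filter, only the groups compared, a replicate block and each library left out. Only an edgeR fit of M1 versus M0 alone was tried on simulated counts, drawn from edgeR's own estimates of spread. The other comparisons and alternatives were not simulated.

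The 6 genes and the 13 lists were chosen with earlier results of these data known. Of each list, up to 4 called genes per comparison with M0, with the smallest adjusted p and a mean of at least 1 CPM, could be named, and Mitf, Tyr, Pmel, Sox10 and Stat3 served as checks. Likeness was ranked over named protein-coding genes averaging at least 5 CPM. Genes named for a count near 0 were chosen after their values were seen.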

Additional observations from a re-analysis of the deposited data

How the results depend on the processing

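The number of genes called in M1 versus M0 was 3744 with all libraries and ranged from 2287 to 7056 when 1 library at a time was left out, with 7056 without M0 replicate 1, 2287 without M1 replicate 1 and 2351 without M1 replicate 3. In TAM versus M1 it was 6279 and ranged from 5176 to 10489, with 10489 without M0 replicate 1. In M2 versus M0 it was 0 and ranged from 0 to 51, with 51 without M0 replicate 1. In TAM versus M0 it was 7372 and ranged from 6107 to 9983. Fitting only the groups compared gave 1282 in M1 versus M0, 4619 in TAM versus M0 and 10301 in TAM versus M1, and DESeq2 gave 7 in M2 versus M0. Leaving out M0 replicate 1 also lowered edgeR's common dispersion, to 0.00166 against 0.0324.

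No pairing by replicate number was detected, as same-numbered libraries deviated from their group means together at correlations from −0.129 to 0.163. With so few libraries per group, and M0 replicate 1 apart from the others, such values do not exclude a pairing. With the replicate number as a block, 3156, 7071, 5988 and 0 genes were called in M1 versus M0, TAM versus M0, TAM versus M1 and M2 versus M0.

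Over all alternatives the log2 change in TAM versus M0 was 3.93 to 4.46 for Ngfr, 1.03 to 1.22 for Nes, −0.61 to −0.32 for Gfap and −0.63 to −0.29 for Sox9. In M1 versus M0 it was 3.59 to 4.13, 0.31 to 0.53, 1.35 to 1.67 and −1.38 to −1.08. Aqp1 ranged from −1.05 to 0.04 in TAM and −1.58 to −0.24 in M1, which its counts of 1 to 14 per library limit.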

Other observations

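Genes that work with SOX2 in pluripotent cells were also examined, and 4 of 12 were tested. In TAM versus M0 2 rose and 0 fell, and in M1 versus M0 0 rose and 1 fell. Without M0 replicate 1 these counts were 2 and 1 in TAM and 0 and 1 in M1. Over all tested genes 23.3% were called higher and 27.2% lower in TAM, and 12.2% and 13.5% in M1. Without M0 replicate 1 these shares were 33.0% and 33.7% in TAM and 24.3% and 22.9% in M1. Klf4 rose in TAM versus M0, averaging 19.7 ± 1.09 CPM in TAM and 1.86 ± 0.593 CPM in M0 (SD, n = 3 each), a log2 change of 3.41 ± 0.20 (adjusted p = 2.8e-07). Myc averaged 196.9 ± 6.97 CPM in TAM, 47.5 ± 3.67 CPM in M1 and 62.5 ± 6.46 CPM in M0. It rose in TAM by 1.66 ± 0.10 (adjusted p = 3.59e-07) and fell in M1 with a change of −0.40 ± 0.10 (adjusted p = 0.0147), a call lost without M1 replicate 1 (adjusted p = 0.0815), with no low-count filter (0.122) and with only the groups compared (0.199). Pou5f1, the gene of the pluripotency factor OCT4, Lin28a and Zfp42 had no count in any library, and Nanog had 1 count.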
